A study of Mus musculus with 5 samples.

Results

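The mitosis and kinetochore genes are 60 genes chosen by function from 30046 features in the count table, and they run from the kinases that start mitosis to the proteins that split the daughter cells. All 60 were found by symbol, and all 60 were among the 12991 protein-coding genes and reporter sequences tested. Each had at least 1 CPM (reads of a gene scaled to a common library total) in every library, the lowest value being 1.87 CPM for Ttk, so no member entered the test through one lineage alone. The members lie on 16 chromosomes.

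The study asked how marrow stromal cells descended from different fetal skeletal cells compare in young mice. RNA was sequenced from Cxcl12-GFPhigh tdTomato+ cells of femurs at postnatal day 21, in 3 Dlx5CE-E12.5 libraries and 2 Fgfr3CE-E12.5 libraries. The Dlx5CE-E12.5 mice were Cxcl12 GFP/+; Dlx5 creER/+; R26R tdTomato/+ and the Fgfr3CE-E12.5 mice were Cxcl12 GFP/+; Fgfr3-creER; R26R tdTomato/+, and both received tamoxifen at embryonic day 12.5. Both groups therefore carry a GFP gene in place of 1 Cxcl12 allele, and tdTomato marks the descendants of cells in which the Dlx5 or the Fgfr3 driver was active at the pulse.

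Cells of littermates were pooled by genotype before sorting, so a library is described as a pool and not as a single mouse. The paper leaves unclear whether its mouse number counts the mice of a library or of a lineage. According to the methods, the Dlx5CE-E12.5 libraries were read as long read pairs on one sequencer and the Fgfr3CE-E12.5 libraries as short single reads on another. The sample labels name the same sequencer for all libraries, so the sources differ. As the methods give it, sequencer and lineage cannot be told apart. Library totals were 22035650 to 32563758 counts in Dlx5CE-E12.5 and 56355203 to 58166285 counts in Fgfr3CE-E12.5. Cxcl12, the gene behind the stromal label, was at 22237 to 23449 CPM in Dlx5CE-E12.5 and at 8333 and 5971 CPM in Fgfr3CE-E12.5 replicates 2 and 3. The neutrophil gene Ngp was at 631 to 934 CPM in Dlx5CE-E12.5 and at 2187 and 5978 CPM in Fgfr3CE-E12.5 replicates 2 and 3. The Fgfr3CE-E12.5 libraries stood apart from each other in markers of other cells. The summed level of 7 chondrocyte markers was 3201 CPM in replicate 2 and 428 CPM in replicate 3, and that of 16 pan-leukocyte markers was 1869 and 3970 CPM in the same order.

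Cyclin-bound Cdk1 drives cells into mitosis, condensins compact the chromosomes, and kinetochores built on the centromeres attach them to spindle microtubules. The spindle checkpoint holds the anaphase-promoting complex inactive until every kinetochore is attached, after which securin and cyclin B are destroyed, separase opens cohesin, and the central spindle and contractile ring divide the cell. Many of these genes are transcribed late in the cell cycle through a promoter element called CHR (cell cycle genes homology region), bound by the MuvB core together with B-Myb and FoxM1 or with repressors, often near CCAAT boxes bound by NF-Y. In adult marrow most reticular stromal cells divide rarely, while blood cell precursors divide often, so mRNAs of mitosis in a marrow isolate can come from more than 1 kind of cell.

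Promoter windows from 250 bases before to 50 bases after the RefSeq gene start (GRCm38.p6) were found for 51 of the 60 members. The 8 stretches printed here run from 130 bases before the start through the first 20 bases of the gene, 5′ to 3′ on the gene's strand. Espl1, Bub1, Cdc25b, Racgap1 and Cdc20 are shown as genes that were higher in Fgfr3CE-E12.5 libraries and that carry both elements near the start, Mybl2 as the member with the largest difference, and Mki67 and Pttg1 as members whose levels in the lineages overlapped. Capitals mark TTTGAA or TTCGAA, the CHR and CHR-like letters searched, and CCAAT, each on either strand.
Espl1 (chr15:102296163-102296312, plus strand): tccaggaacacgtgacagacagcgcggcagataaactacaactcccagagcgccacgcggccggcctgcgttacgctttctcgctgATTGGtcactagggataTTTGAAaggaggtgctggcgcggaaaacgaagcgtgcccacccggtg
Bub1 (chr2:127831840-127831989, minus strand): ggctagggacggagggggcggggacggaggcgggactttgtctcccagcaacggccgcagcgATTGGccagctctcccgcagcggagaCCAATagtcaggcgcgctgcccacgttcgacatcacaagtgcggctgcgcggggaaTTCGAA
Cdc25b (chr2:131186818-131186967, plus strand): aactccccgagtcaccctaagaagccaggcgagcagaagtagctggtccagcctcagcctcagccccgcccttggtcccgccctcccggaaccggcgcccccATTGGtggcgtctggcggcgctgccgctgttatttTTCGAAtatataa
Racgap1 (chr15:99651637-99651786, minus strand): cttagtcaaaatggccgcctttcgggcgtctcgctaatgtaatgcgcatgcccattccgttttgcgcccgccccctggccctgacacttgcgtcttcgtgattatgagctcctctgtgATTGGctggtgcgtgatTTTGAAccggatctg
Cdc20 (chr4:118437324-118437473, minus strand): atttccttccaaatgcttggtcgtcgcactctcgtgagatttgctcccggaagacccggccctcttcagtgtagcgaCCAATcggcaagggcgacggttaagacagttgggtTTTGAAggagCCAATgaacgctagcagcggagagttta
Mybl2 (chr2:163054505-163054654, plus strand): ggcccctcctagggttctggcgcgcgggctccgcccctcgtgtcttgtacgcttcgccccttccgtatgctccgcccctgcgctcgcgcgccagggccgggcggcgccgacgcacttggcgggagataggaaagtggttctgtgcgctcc
Mki67 (chr7:135716360-135716509, minus strand): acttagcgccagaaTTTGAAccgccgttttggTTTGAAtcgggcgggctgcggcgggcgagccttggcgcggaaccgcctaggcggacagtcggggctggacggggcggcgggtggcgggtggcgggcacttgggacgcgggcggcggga
Pttg1 (chr11:43425962-43426111, minus strand): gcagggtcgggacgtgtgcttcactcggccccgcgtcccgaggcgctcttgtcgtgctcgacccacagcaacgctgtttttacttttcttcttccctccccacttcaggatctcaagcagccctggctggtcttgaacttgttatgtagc

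In these stretches Espl1, Racgap1 and Cdc20 held TTTGAA starting 27 bases before, 5 bases after and 18 bases before the start, and Bub1 and Cdc25b held TTCGAA 14 and 7 bases after it. Mki67 held TTTGAA at 2 places farther upstream, while Mybl2 and Pttg1 had none of the 3 strings in the whole 300-base window. The printed genes are examples and not a random draw of the members. Knl1 and Cks2, whose levels in the lineages also overlapped, are not printed. Knl1 held TTTGAA 31 bases after the start, and Cks2 held CCAAT 14 bases after it. Cenpf, not called, held TTTGAA 2 bases after the start, while Ccnb1, called higher in Fgfr3CE-E12.5, held only CCAAT. Over all members with a window, TTTGAA occurred in 33 of 51 (64.71%) and in 14.47% of the 10111 tested genes with a window. TTCGAA, added after the sequences had been seen, occurred in 6 of 51 (11.76%) against 2.59% of all. CCAAT occurred in 38 of 51 (74.51%) against 43.2% of all, and at least 2 times in 26 of 51 (50.98%) against 16.48%. A window with TTTGAA or TTCGAA as well as CCAAT was found for 32 of 51 members (62.75%) and for 7.03% of all genes with a window. TTTGAA and TTCGAA matches overlapped in 0 of the members' 57 windows, and CCAAT overlapped one of them in 1 window.

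The matches were not spread evenly over the window. Counted in each window, and so more than once where a site lies in overlapping windows of the 5 members with several starts, there were 54 TTTGAA or TTCGAA matches at 50 distinct sites. Their median start was 10 bases before the gene start, and 37 matches at 35 sites began between 60 bases before and 40 bases after it, a range set after the positions had been seen. At least 1 such match lay in that range in 33 of 51 members (64.71%), in 4.73% of all genes with a window, and in 2 of 26 DNA replication genes with a window (7.69%). For CCAAT, which was also common among the DNA replication genes (16 of 26, 61.54%), the 95 matches, at 88 distinct sites, had a median start 67 bases before the gene start. A match is a description of letters and not a bound site.

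**Figure D1:**
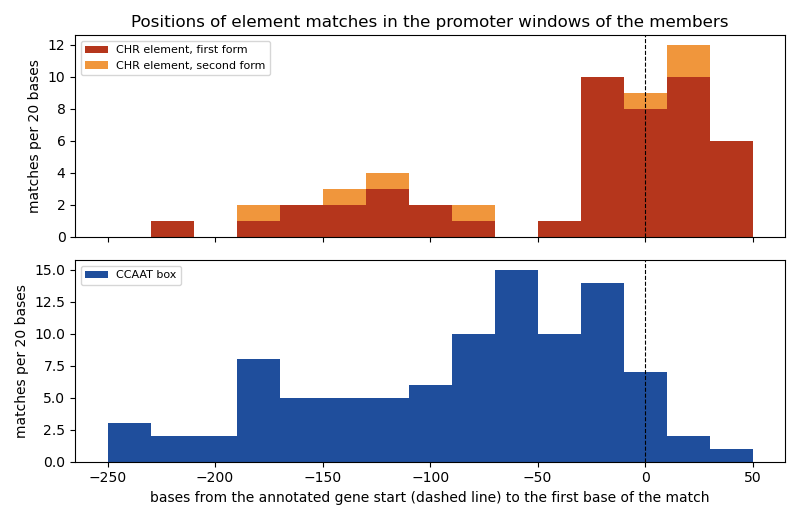
Number of matches per 20 bases, counted in each window (vertical axes), against the distance in bases from the annotated gene start to the first base of the match, over the promoter windows of 51 members. The upper panel stacks the CHR element (TTTGAA as first form, TTCGAA as second form), whose matches crowd around the start with a median of -10. The lower panel shows CCAAT, with a median of -67.

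Which of these genes differed between the lineages was tested with edgeR's quasi-likelihood test over all genes, and a gene was called where the adjusted p was under 0.05 and the log2 fold change was past 1 in size. Of the 60 members, 48 were called higher in Fgfr3CE-E12.5 libraries, where 16.6% of all genes tested were called in that direction. Called higher in Dlx5CE-E12.5 libraries were 0 members, where the background was 12.8%. With no fold threshold, edgeR called 54 members higher, against 22.9% of all genes tested, and 0 lower. DESeq2's Wald test also called 48 higher, against 17.4% of all genes tested, and 0 lower. The median log2 fold change (Fgfr3CE-E12.5 over Dlx5CE-E12.5) was 1.74, from 0.10 for Pttg1 to 3.28 for Mybl2, and the median of all genes tested was 0.01. The members' summed level was 1753, 1120 and 1224 CPM in Dlx5CE-E12.5 replicates 1, 2 and 3 and 3526 and 4073 CPM in Fgfr3CE-E12.5 replicates 2 and 3, a ratio of group means of 2.78. Both Fgfr3CE-E12.5 libraries lay above all 3 Dlx5CE-E12.5 libraries for 56 of 60 members, against 33.6% of all genes tested, and the exceptions were Cks2, Mki67, Knl1 and Pttg1. In bulk RNA, fewer dividing cells and less of an mRNA per dividing cell cannot be told apart.

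**Figure D2:**
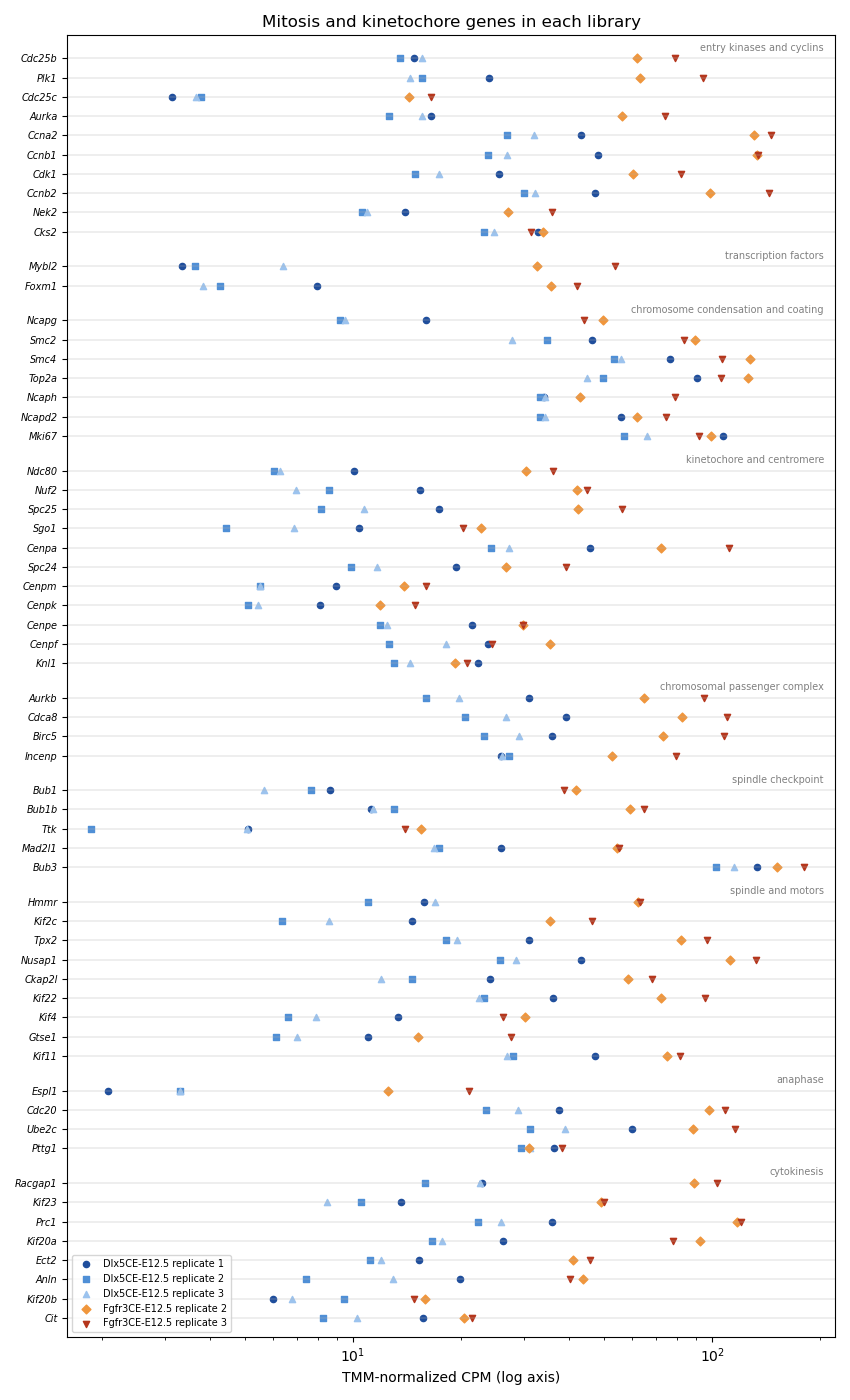
TMM-normalized CPM (horizontal log axis) of the 60 members in each library, grouped by role and ordered within a role by log2 fold change, with 1 point per library. The orange and red Fgfr3CE-E12.5 points lie to the right of all blue Dlx5CE-E12.5 points in 56 of 60 rows.

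Markers of several blood and skeletal cell types differed between the lineages as well. Of 16 pan-leukocyte markers, 15 were called higher in Fgfr3CE-E12.5, and their summed level was 783, 681 and 608 CPM in Dlx5CE-E12.5 replicates 1, 2 and 3 against 1869 and 3970 CPM. Among 6 neutrophil precursor markers, which belong to dividing granulocyte precursors, 5 were called higher, with sums of 1324, 940.4 and 608 CPM against 2209 and 4405 CPM. The 6 haematopoietic progenitor markers, of stem and progenitor cells, summed to 57.1, 29.0 and 31.8 CPM against 155 and 172 CPM, a ratio of group means of 4.15. Of these 6, Kit and Myb were called higher, at log2 fold changes of 2.94 and 2.95. The other 4 were not called, with Flt3 at 2.99, Cd34 at 1.36, Gfi1b at 0.38 and Mecom at -1.12. Maturing neutrophil markers were called higher for 7 of 7 and B lineage markers for 5 of 10. The B lineage markers Pax5 and Rag1 were at -0.93 and -0.42 on the log2 scale, without a call. Summed erythroid markers were 14013 to 28789 CPM in Dlx5CE-E12.5 and 8784 and 13382 CPM in Fgfr3CE-E12.5. Without the globin genes Hba-a1 and Hbb-bs, the erythroid sums were 824, 451 and 582 CPM against 576 and 879 CPM, which overlapped. Of the chondrocyte markers, 6 of 7 were called higher, and Col9a1 and Col10a1 had 0 counts in every Dlx5CE-E12.5 library. The exception was Sox9, at -0.70 on the log2 scale without a call. Col10a1 was at 22.7 CPM in Fgfr3CE-E12.5 replicate 2 and at 0.227 CPM in replicate 3. Osteoblast markers were called higher for 5 of 7, with sums of 5484, 4202 and 3900 CPM against 7460 and 9972 CPM. Macrophage and osteoclast markers were called higher for 4 of 7, megakaryocyte markers for 3 of 6 and endothelial markers for 0 of 6. Of 10 markers of CXCL12-abundant reticular stroma, 7 were called lower in Fgfr3CE-E12.5 and Foxc1 was called higher (log2 fold change 2.80, edgeR adjusted p = 0.000147), with sums over the list of 34766 to 36789 CPM against 9037 and 13875 CPM. The part of any of these cells in the members' difference was not tested.

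Values in each library are given from here on in the order Dlx5CE-E12.5 replicates 1, 2 and 3, then Fgfr3CE-E12.5 replicates 2 and 3. Of 10 entry kinases, cyclins and their partners, 9 were called higher in Fgfr3CE-E12.5, with a class median log2 fold change of 2.02. Ccna2, cyclin A2, was at 43.2, 26.8 and 32.0 CPM against 131 and 146 CPM. Its lowest Fgfr3CE-E12.5 library was above its highest Dlx5CE-E12.5 library, and its log2 fold change was 2.02 (SE 0.21, edgeR adjusted p = 0.000473). Ccnb1, cyclin B1, was at 48.2, 23.7 and 26.8 CPM against 133 and 134 CPM, with a log2 fold change of 2.02 (SE 0.29, edgeR adjusted p = 0.00184). Its partner Cdk1 stood at 25.4, 14.9 and 17.4 CPM against 60.1 and 82.2 CPM, a log2 fold change of 1.88 (SE 0.26). The groups did not overlap for either gene, and Dlx5CE-E12.5 replicate 1 was the highest of its group for both.

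The largest difference of the class was that of Cdc25b, a phosphatase that activates Cdk1. It was at 14.8, 13.6 and 15.6 CPM against 61.6 and 78.8 CPM, and the log2 fold change was 2.26 (SE 0.17, edgeR adjusted p = 0.000134). Its 3 Dlx5CE-E12.5 values were close together. The kinases Plk1, Aurka and Nek2 had log2 fold changes of 2.13, 2.12 and 1.40, and Cdc25c and cyclin B2 (Ccnb2) of 2.13 and 1.73. Cks2, a small subunit that binds Cdk1, was at 32.8, 23.2 and 24.7 CPM against 33.8 and 31.3 CPM. These values overlapped between the groups, and the log2 fold change of 0.27 (SE 0.20) had an edgeR adjusted p of 0.297. Of the 50-base windows of Cks2, 29.7% also occur in other genes, as do 23.4% of those of Ccnb1, so their counts are less certain.

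Both transcription factors of the list were called higher, and they included the largest difference of all members. Mybl2, which encodes B-Myb, was at 3.35, 3.64 and 6.37 CPM against 32.5 and 53.8 CPM. The lowest Fgfr3CE-E12.5 value was several times the highest Dlx5CE-E12.5 value, and the log2 fold change was 3.28 (SE 0.35, edgeR adjusted p = 0.000530). Foxm1, which encodes the forkhead factor that activates late cell cycle genes, was at 7.96, 4.27 and 3.83 CPM against 35.5 and 42.0 CPM, a log2 fold change of 2.85 (SE 0.33, edgeR adjusted p = 0.000724). For Mybl2, 19.34% of windows are shared with other genes.

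Chromosome condensation and coating was the class with the smallest median, 0.90, and 2 of its 7 members were called higher. Ncapg, a condensin I subunit, was at 16.0, 9.19 and 9.53 CPM against 49.8 and 44.1 CPM, with a log2 fold change of 2.02 (SE 0.27, edgeR adjusted p = 0.00128). Smc2, an ATPase core subunit of condensin, had a log2 fold change of 1.26 (edgeR adjusted p = 0.00394). Top2a, the topoisomerase that untangles sister DNA, was at 90.8, 49.7 and 45.0 CPM against 126 and 106 CPM. It did not overlap between the groups, but its log2 fold change of 0.90 (SE 0.30, edgeR adjusted p = 0.0450) stayed under the fold threshold. The log2 fold changes of the condensin genes Smc4, Ncaph and Ncapd2 were 0.92, 0.84 and 0.73. Mki67, the Ki-67 protein that coats mitotic chromosomes and serves as a common proliferation marker, was at 107, 56.9 and 66.0 CPM against 99.4 and 92.1 CPM. Its highest library was Dlx5CE-E12.5 replicate 1 and its groups overlapped, with a log2 fold change of 0.32 (SE 0.27, edgeR adjusted p = 0.367). Without Dlx5CE-E12.5 replicate 1, Top2a, Smc4 and Ncapd2 were called, at log2 fold changes of 1.29, 1.10 and 1.02. Without Fgfr3CE-E12.5 replicate 2, Ncaph was called at 1.21, and without Fgfr3CE-E12.5 replicate 3, Smc4 was called at 1.04.

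Of the 11 kinetochore and centromere genes, 8 were called higher, with a class median log2 fold change of 1.27. Ndc80, of the complex that grips the microtubule, was at 10.04, 6.04 and 6.24 CPM against 30.4 and 36.1 CPM. The groups were well separated, with a log2 fold change of 2.16 (SE 0.27, edgeR adjusted p = 0.000990). Its complex partners Nuf2, Spc25 and Spc24 had log2 fold changes of 2.07, 2.02 and 1.27. Cenpa, the histone H3 variant that marks centromeres and the member of the class with the highest CPM, was at 45.8, 24.2 and 27.1 CPM against 72.3 and 111 CPM, a log2 fold change of 1.502 (SE 0.31, edgeR adjusted p = 0.00760). Sgo1, the shugoshin that protects centromeric cohesin, stood at 1.57 on the log2 scale, and the constitutive centromere genes Cenpk and Cenpm at 1.10 and 1.16.

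The outer kinetochore scaffold gene Knl1 was at 22.3, 12.97 and 14.4 CPM against 19.3 and 20.7 CPM. Dlx5CE-E12.5 replicate 1 was its highest library, the groups overlapped, and the log2 fold change was 0.27 (SE 0.27, edgeR adjusted p = 0.448). Cenpe, a kinetochore motor, and Cenpf, a large kinetochore protein, had log2 fold changes of 0.96 (edgeR adjusted p = 0.0295) and 0.71 (edgeR adjusted p = 0.0907), neither past both thresholds. Cenpe was called without Dlx5CE-E12.5 replicate 1, at 1.29. The calls of Cenpk, Cenpm and Spc24 were lost without Dlx5CE-E12.5 replicate 2 (edgeR adjusted p = 0.0705, 0.0617 and 0.0519), without Dlx5CE-E12.5 replicate 3 (0.0658, 0.0566 and 0.0510) and without Fgfr3CE-E12.5 replicate 3 (0.103, 0.0808 and 0.102).

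All 4 genes of the chromosomal passenger complex, which corrects faulty attachments, were called higher, at log2 fold changes of 1.84 for the kinase Aurkb, 1.74 for Cdca8 (borealin), 1.63 for Birc5 (survivin) and 1.33 for the scaffold Incenp. Aurkb was at 30.9, 16.0 and 19.8 CPM against 64.6 and 95.1 CPM, with SE 0.30 and edgeR adjusted p = 0.00286. Cdca8 was at 39.3, 20.5 and 26.6 CPM against 82.5 and 110.0 CPM, with no overlap of the groups. Incenp was at 25.8, 27.2 and 25.9 CPM against 52.8 and 79.5 CPM, so that the Dlx5CE-E12.5 libraries were nearly equal and the Fgfr3CE-E12.5 libraries were not.

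Of 5 spindle checkpoint genes, 4 were called higher. The kinase gene Bub1 was at 8.64, 7.62 and 5.66 CPM against 41.7 and 38.6 CPM, the largest difference of the class at a log2 fold change of 2.46 (SE 0.22, edgeR adjusted p = 0.000272). Bub1b, which encodes BubR1 of the mitotic checkpoint complex, was at 11.2, 13.02 and 11.4 CPM against 59.0 and 64.8 CPM, a log2 fold change of 2.38 (SE 0.16) with the smallest adjusted p of all members (edgeR, 8.4e-05). The libraries of Bub1b were close together within each group. Those of Bub1 were more spread in Dlx5CE-E12.5, with an SD of log2 CPM of 0.31 against 0.12 for Bub1b. Ttk, the kinase Mps1, and Mad2l1, the Mad2 inhibitor of Cdc20, had log2 fold changes of 1.86 and 1.45. Bub3, which brings Bub1 and BubR1 to kinetochores, was at 133, 102 and 115 CPM against 152 and 180 CPM. It was higher in both Fgfr3CE-E12.5 libraries, but the log2 fold change was 0.51 (SE 0.16, edgeR adjusted p = 0.0402), under the fold threshold.

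All 9 spindle and motor genes were called higher, from a log2 fold change of 1.20 for Kif11, the kinesin that pushes the poles apart, to 2.10 for Hmmr, a spindle pole protein. Nusap1, which binds spindle microtubules and had the highest mean CPM of the class over the 5 libraries, was at 43.3, 25.6 and 28.5 CPM against 112 and 132 CPM, with a log2 fold change of 1.91 (SE 0.24, edgeR adjusted p = 0.000950). Hmmr was at 15.8, 11.0 and 16.9 CPM against 62.1 and 63.2 CPM (SE 0.21, edgeR adjusted p = 0.000394), and Kif11 at 47.3, 27.9 and 26.9 CPM against 74.8 and 81.2 CPM (SE 0.26, edgeR adjusted p = 0.00919). None of the 3 overlapped between the groups. Tpx2, which activates Aurka on the spindle, and Kif2c, a microtubule depolymerase, had log2 fold changes of 1.97 and 2.05. Kif4 and Kif22, chromosome-bound kinesins, had 1.59 and 1.62. Gtse1, with 1.41, lost its call without Dlx5CE-E12.5 replicate 2, without Dlx5CE-E12.5 replicate 3 and without Fgfr3CE-E12.5 replicate 3 (edgeR adjusted p = 0.0565, 0.0510 and 0.122).

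At anaphase, 3 of 4 genes were called higher. Espl1, the separase that cuts cohesin, was at 2.08, 3.29 and 3.29 CPM against 12.5 and 21.0 CPM, with a log2 fold change of 2.54 (SE 0.34, edgeR adjusted p = 0.00135). Cdc20, the activator of the anaphase-promoting complex, was at 37.6, 23.5 and 28.8 CPM against 98.0 and 109 CPM, a log2 fold change of 1.78 (SE 0.21, edgeR adjusted p = 0.000739). Pttg1, securin, which inhibits separase, was at 36.4, 29.3 and 31.0 CPM against 30.8 and 38.3 CPM. Its libraries were interleaved, with the smallest log2 fold change of all members (0.10, SE 0.18, edgeR adjusted p = 0.687), and without Fgfr3CE-E12.5 replicate 3 the sign changed (-0.07). Ube2c, the ubiquitin-conjugating enzyme of the complex, was at 59.8, 31.2 and 38.9 CPM against 88.6 and 116 CPM, a log2 fold change of 1.24 whose call was lost without Fgfr3CE-E12.5 replicate 3 (edgeR adjusted p = 0.0605). The exons of Ube2c overlap another gene over 22.77% of their length, and the strand setting of the counting is not stated.

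Of 8 cytokinesis genes, 7 were called higher. Racgap1, of the centralspindlin complex, was at 22.8, 15.9 and 22.6 CPM against 89.0 and 103 CPM, with a log2 fold change of 2.23 (SE 0.20, edgeR adjusted p = 0.000253). Prc1, which bundles the microtubules of the central spindle, was at 35.7, 22.3 and 25.8 CPM against 118 and 120.5 CPM, a log2 fold change of 2.09 (SE 0.21). The Fgfr3CE-E12.5 libraries were nearly equal for Prc1, and far above the Dlx5CE-E12.5 libraries for both genes. Kif23, the motor of centralspindlin, and Kif20a, a kinesin of the central spindle, had log2 fold changes of 2.19 and 2.08, and the ring genes Ect2 (a RhoA activator) and Anln (anillin) had 1.76 and 1.64. The exons of Kif20a overlap another gene over 29.3% of their length. Cit, citron kinase, was at 15.6, 8.25 and 10.2 CPM against 20.3 and 21.4 CPM, a log2 fold change of 0.87 (SE 0.29, edgeR adjusted p = 0.0445), and was called without Dlx5CE-E12.5 replicate 1, at 1.17. Kif20b, at 1.05, kept its call without Dlx5CE-E12.5 replicate 2 and lost it without each of the other 4 libraries, with log2 fold changes of 0.92 and 0.99 without Dlx5CE-E12.5 replicates 1 and 3, and edgeR adjusted p of 0.0595 and 0.0505 without Fgfr3CE-E12.5 replicates 2 and 3.

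**Figure D3:**
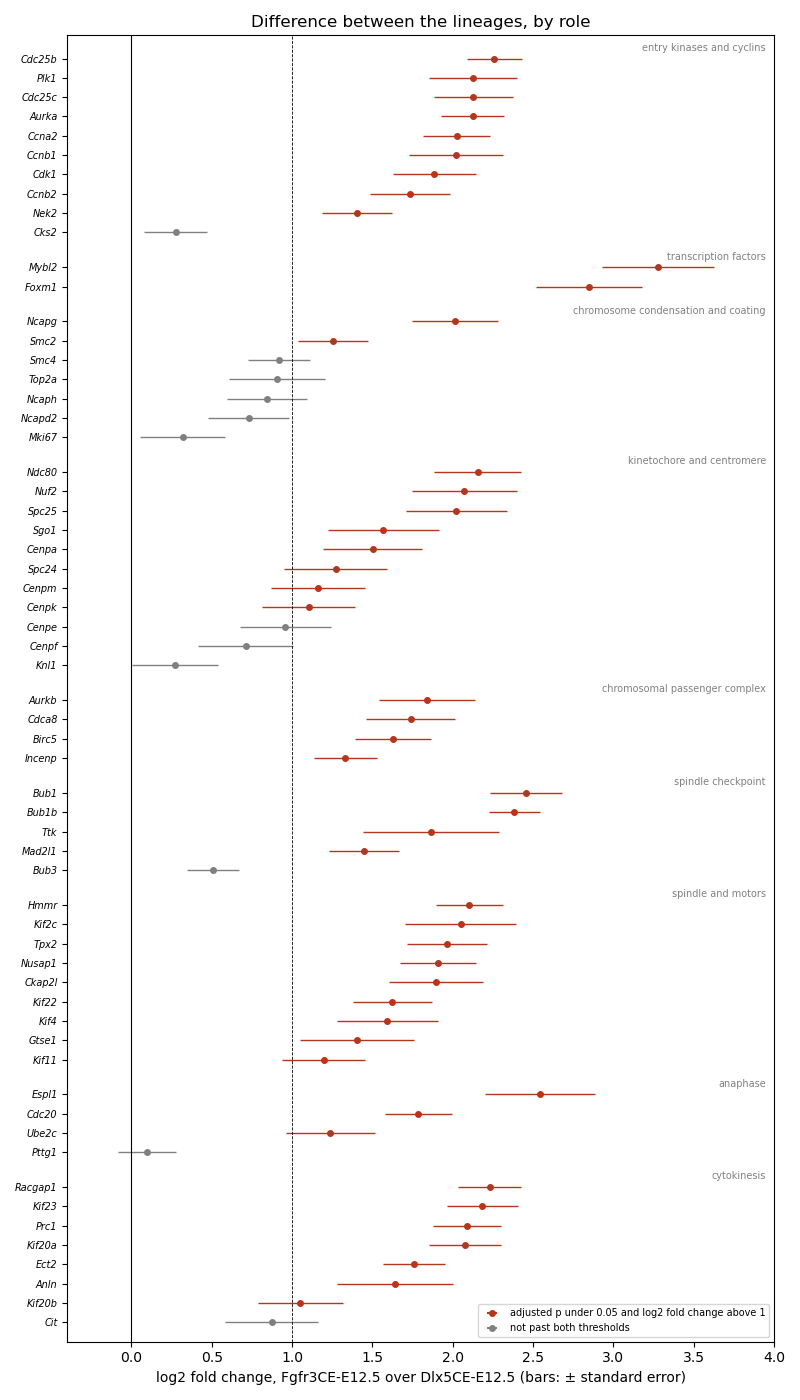
Log2 fold change of each member (Fgfr3CE-E12.5 over Dlx5CE-E12.5, horizontal axis) with its standard error as a bar, grouped by role. Red points passed an adjusted p under 0.05 and the dashed fold threshold of 1. The 12 grey points did not, and all lie to the right of 0, from 0.10 for Pttg1 to 0.96 for Cenpe.

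The 12 members not called all had log2 fold changes above 0. For 6 of them (Top2a, Smc4, Ncaph, Cenpe, Bub3 and Cit) the edgeR adjusted p was under 0.05 and the fold too small, and for the other 6 (Cks2, Mki67, Knl1, Cenpf, Pttg1 and Ncapd2) it was 0.05 or more. Among members with a promoter window, TTTGAA or TTCGAA near the start, as defined above, was present in 29 of 40 called members (72.5%) and in 4 of 11 that were not called (36.36%). In the whole window the counts were 31 of 40 (77.5%) and 6 of 11 (54.55%), and for TTTGAA alone 27 of 40 (67.5%) and 6 of 11. The near range and TTCGAA were chosen after these promoters had been seen, and the difference was not tested. Spearman's rho of log2 fold change with exon length was -0.12 and with GC percent 0.17, across the 60 genes, which share the same 5 libraries and are not independent replicates.

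Levels can be set against each other between genes only per length. On the scale of CPM per kilobase of exon, Ccnb2 was the highest member in both Fgfr3CE-E12.5 libraries, at 64.4 and 93.8, followed by Cdc20 at 52.5 and 58.2. In the Dlx5CE-E12.5 libraries the highest level was that of Cks2, at 47.4, 33.5 and 35.7 CPM per kilobase, with Ccnb2 at 30.8, 19.6 and 21.0. Cit was the lowest in Fgfr3CE-E12.5 at 1.24 and 1.30 CPM per kilobase, and Espl1 the lowest in Dlx5CE-E12.5 at 0.238, 0.376 and 0.376. In each library the level of Ccnb2 per kilobase was thus far above that of Espl1.

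The libraries of a group differed among themselves in these genes. Dlx5CE-E12.5 replicate 1 was the highest of its group for 51 of 60 members, against 39.5% of all genes tested, and the median ratio of replicate 1 to the mean of replicates 2 and 3 was 1.56 for members and 1.00 for all genes. For the 6 neutrophil precursor markers that median ratio was 1.71, for the 10 B lineage markers 2.42 and for the 8 erythroid markers 1.56. It was 1.20 for the 16 pan-leukocyte, 1.73 for the 6 haematopoietic progenitor, 1.35 for the 7 osteoblast and 1.89 for the 6 endothelial markers. The 7 maturing neutrophil markers had 0.73, the 6 megakaryocyte markers 0.72 and the 10 markers of CXCL12-abundant reticular stroma 0.82. The part of any of these cells in the members' spread was not tested. The median SD of log2 CPM over the members was 0.40 in the 3 Dlx5CE-E12.5 libraries and 0.17 in the 2 Fgfr3CE-E12.5 libraries. Over all genes tested it was 0.19 and 0.22. Without Dlx5CE-E12.5 replicate 1, 52 members and 2213 of all genes tested were called higher.

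Between the Fgfr3CE-E12.5 libraries, 1 against 1 and so without a test, replicate 3 was above replicate 2 for 45 of 60 members, against 48.7% of all genes tested. Past 2-fold in either direction were 0 members, where 4.74% of all genes were past 2-fold higher and 4.48% past 2-fold lower in replicate 3. The median ratio of replicate 3 to replicate 2 was 1.16, from 0.69 for Cenpf to 1.83 for Ncaph. Past 1.5-fold higher were 6 members, namely Ncaph, Gtse1, Espl1, Mybl2, Cenpa and Incenp, where 12.0% of all genes were past that ratio, so that this count lies near the background. Past 1.5-fold lower were 0 members, against 12.9% of all genes. By role, the passenger complex genes had the highest median ratio of the classes with more than 2 genes, 1.48, and the cytokinesis genes had 1.02.

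The leukocyte and neutrophil lists had larger ratios between these libraries than the members did. Replicate 3 was higher for 16 of 16 pan-leukocyte markers, with a median ratio of 2.01 and a range of 1.33 to 3.55, and for 7 of 7 maturing neutrophil markers, with a median of 2.61. The ratio of sums was 2.12 for pan-leukocyte and 1.99 for neutrophil precursor markers, and 1.15 for the members. For the haematopoietic progenitor markers the ratio of sums was 1.11 and the median ratio 1.28, and single genes ran from 0.65 for Kit to 1.71 for Cd34. The megakaryocyte and chondrocyte markers were lower in replicate 3, with ratios of sums of 0.24 and 0.13. The part of any of these cells in the members' levels was not tested. Without replicate 3 or without replicate 2 of Fgfr3CE-E12.5, 43 and 48 members were called higher, beside 1619 and 2096 of all genes tested.

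**Figure D4:**
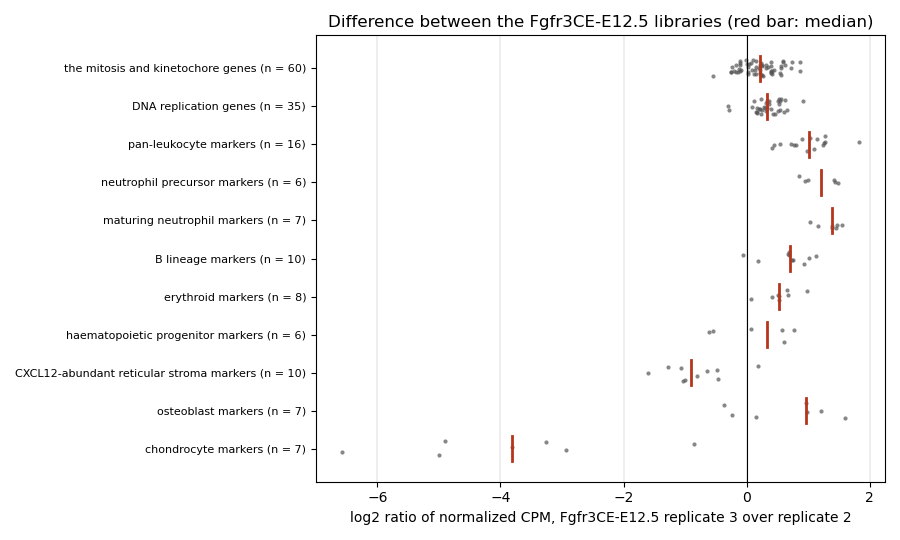
Log2 ratio of normalized CPM in Fgfr3CE-E12.5 replicate 3 over replicate 2 (horizontal axis) for each gene of the members, the DNA replication genes and the marker lists, with red bars at the medians. The members gather near 0 with a median ratio of 1.16, while all 16 pan-leukocyte markers lie to the right of 0 and the chondrocyte markers to the left.

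Other genes of mitosis that are no members were described from lists chosen by function. Of 94 such genes, 45 were called higher in Fgfr3CE-E12.5 and 1 lower, with a median log2 fold change of 0.89. Among 28 other kinetochore and centromere genes 14 were called higher, led by Oip5, which helps load Cenpa, at 2.56 (SE 0.50, edgeR adjusted p = 0.00638). Zwint, a partner of Knl1, stood at -0.07 and Cenpt, of the inner kinetochore, at -0.63 on the log2 scale, neither past both thresholds. Of 18 other spindle and cytokinesis genes 12 were called higher, and they held differences larger than any member's. Kif18b, a kinesin of astral microtubules, was at 2.59, 0.884 and 1.66 CPM against 24.1 and 37.7 CPM, a log2 fold change of 4.14 (SE 0.43, edgeR adjusted p = 0.000464). Pimreg and Depdc1b followed at 3.91 and 3.48.

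Of 23 other mitotic kinases, phosphatases and regulators 18 were called higher, led by Wee1, the kinase that restrains Cdk1, at a log2 fold change of 2.57 (SE 0.24, edgeR adjusted p = 0.000297). The lists of core machines that also act outside mitosis had medians near 0. Of 15 anaphase-promoting complex genes 1 was called, Fzr1 (Cdh1, its activator late in mitosis and in G1), at 1.54, and the list's median was 0.08. Of 10 cohesin genes and regulators 1 was called, the loader Nipbl, lower in Fgfr3CE-E12.5 at -1.67 (SE 0.20, edgeR adjusted p = 0.000775), and the list's median was -0.23. Of 35 DNA replication genes, which act a phase earlier, 20 were called higher with a median of 1.10, beside 48 of 60 and 1.74 for the mitosis and kinetochore genes. Cdc45 of the replicative helicase was at 1.95 and Pcna, the polymerase clamp, at 0.28 without a call.

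**Figure D5:**
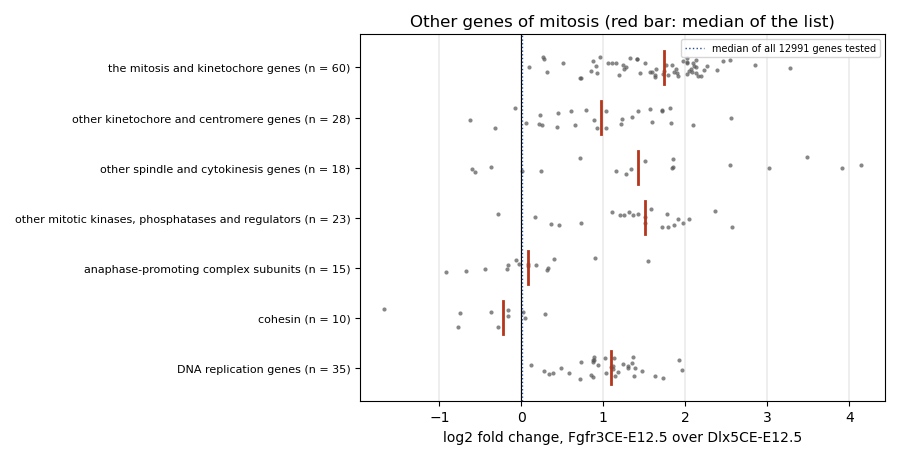
Log2 fold change (Fgfr3CE-E12.5 over Dlx5CE-E12.5, horizontal axis) of each gene, with 1 row per list, red bars at the list medians and a dotted line at the median of all 12991 genes tested. The members have a median of 1.74, the anaphase-promoting complex 0.08 and cohesin -0.23.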

How the data were processed

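The authors deposited counts of reads per Ensembl gene, without normalization. The submitters' processing notes name TopHat2 2.0.13, Bowtie2 2.2.1 and HTSeq, and the build is mm10. The strand setting is not given in the sources used here. The deposited depth-normalized signal and rlog values were not used. Members and lists were chosen with earlier results of these data known.

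Symbols and coordinates came from GENCODE M21 (GRCm38). Protein-coding genes and reporter sequences with a mean CPM of at least 1 over the 5 libraries were tested with edgeR 4.0.16 (R 4.3.3), by TMM normalization and the quasi-likelihood test with lineage as the only term. P-values were adjusted by Benjamini-Hochberg over all genes tested, and SE was the log2 fold change divided by the root of its F statistic. CPM values are TMM-normalized. The p-values measure the spread between these 5 pooled samples, and amplified reads without molecular identifiers are not independent molecules. Library values are given for the highest, most and least changed members of each role and others that a result turns on. The same replicate numbers mark different mice, and no pair of libraries was a duplicate. The fit was tested on simulated counts. Alternatives were DESeq2 1.42.0, other scalings, tests, filters and thresholds, GC and length trends, a replicate block and each library left out. Promoters came from RefSeq, and the CHR, CHR-like and CCAAT strings spelled out in the report were searched on both strands. Shared sequence is the percent of a gene's 50-base exon windows found in another gene.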

Additional observations from a re-analysis of the deposited data

How the results depend on the processing

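The number of members called higher in Fgfr3CE-E12.5 was 48, and over 18 alternatives it ran from 32, with a test against a 2-fold change (9.14% of all genes called higher), to 54, with no fold threshold (22.9% of all genes), while the number called higher in Dlx5CE-E12.5 was 0 throughout. Leaving out 1 library at a time gave 43 to 52. In all, 32 members were called under every alternative and 59 had a log2 fold change above 0 under every one. The exception was Pttg1, at -0.0658 without Fgfr3CE-E12.5 replicate 3 and up to 0.245, without replicate 2, when single libraries were left out. Without Dlx5CE-E12.5 replicates 1, 2 and 3 in turn, 17%, 14.2% and 15% of all genes were called higher. Library size alone gave 53 calls, against 19.8% of all genes, and moved the median of all genes by 0.20 on the log2 scale. Between the Fgfr3CE-E12.5 libraries, 6 members passed 1.5-fold (12.0% of all genes higher and 12.9% lower) in place of 0 past 2-fold. With the replicate number as a block (replicate block), 52 members were called higher, against 17% of all genes. The numbers pair no mice, and whether they relate across the lineages is not stated. Same-numbered libraries deviated with correlations of 0.04 and -0.05. The deviations of the 2 Fgfr3CE-E12.5 libraries mirror each other, so these values cannot show or exclude a shared batch. Every member had at least 1.87 CPM in each library, and each value rests on 3 and 2 pools.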
